A study of Mus musculus with 45 samples.

Results

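MHCII+ macrophages of injured skeletal muscle were compared between day 4 and day 1 after a cardiotoxin injection. The comparison rests on 4 of the 45 arrays of the series: 2 at day 1 (replicates 1 and 2) and 2 at day 4 (replicates 2 and 3), chosen by their titles. All 4 came from 8-week-old male C57Bl6 mice that were Foxp3.DTR-, that is, without the diphtheria toxin (DT) receptor that other mice of the series carried under the Foxp3 promoter, which is active in regulatory T cells. Cardiotoxin, given to every mouse of both groups, destroys muscle fibres, after which the muscle regenerates. The titles of the day 1 samples carry a DT time of 24 h and those of day 4 carry none, so the day and any effect of the toxin cannot be told apart; whether DTR- mice at day 4 were given toxin is not stated in the sources used here. The labels give the gate as live CD45+ CD11b+ cells without Ly6g or SiglecF and with the macrophage antigen that Adgre1 encodes. They do not say whether samples came from separate mice or from pools, so the p-values measure only the spread between samples of a group, pooled over the 18 groups of the series, and that spread may be technical.

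The titles of these arrays say MHCII+, but 1 of their marker fields says MHCII-. H2-Ab1, which encodes the class II beta chain, lay between log2 13.71 and 13.91 in the 4 arrays and between 7.81 and 10.61 in the 4 arrays titled MHCII- of the same days and genotype. The same separation was seen for H2-Aa (13.57 to 13.85 against 7.94 to 10.69), H2-Eb1 (13.30 to 13.67 against 8.32 to 9.62) and the invariant chain gene Cd74 (13.49 to 13.66 against 10.48 to 11.78). The pan-macrophage genes Adgre1, which encodes that antigen, and Lyz2, which encodes lysozyme, were both bright, at 12.57 to 12.95 and 13.84 to 13.96. The arrays followed their titles.

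Damaged muscle is entered within a day by blood monocytes, which become macrophages that clear debris and make inflammatory mediators. Over the following days the macrophages of the lesion change from an early inflammatory state to one associated with tissue repair, with growth factors for myogenic and stromal cells and with lipid and lysosomal genes. Macrophages that display MHC class II can present antigen to CD4 T cells, and interferon-gamma from T and NK cells induces genes in them, in part through interferon regulatory factors.

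Of 11074 genes tested, 1704 passed an adjusted p of 0.05 (15.4%), with 861 higher at day 4 (7.77%) and 843 lower (7.61%). A change of at least 2-fold besides was found for 309 genes (2.79%), of which 215 were higher and 94 lower. The median change over all genes tested was -0.01 on the log2 scale. Counts of list members in MHCII+ cells are to be read beside the shares of all genes, 7.77% higher and 7.61% lower. This holds also where the shares are not repeated. Counts in MHCII- cells and of the difference between subsets have other shares, given where the subsets are compared. Values that do not overlap between the groups are common with 2 arrays against 2: they were found for 60.5% of genes (6696), with 28.6% higher and 31.8% lower, and for each of the 1704 genes that passed. The spread between replicates was larger at day 4 (pooled SD 0.196) than at day 1 (0.114). The split between directions and the count both moved with single arrays: 538 genes were higher and 249 lower without day 1 replicate 1 (787 in all), 492 and 432 without day 1 replicate 2 (924), 498 and 158 without day 4 replicate 2 (656), and 631 and 1045 without day 4 replicate 3 (1676). With arrays centred on their medians 623 were higher and 867 lower. Values below are log2 intensities, given for day 1 replicates 1 and 2 and then for day 4 replicates 2 and 3, and changes are day 4 minus day 1 with the standard error. A gene was tested if its mean reached a filter level of log2 7.57 in any group of the series, so a tested gene can be dim at 1 of the days compared; of 76 named genes that rose and passed, 19 had a day 1 mean below that level, and a change from such a level rests on a dim signal.

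The largest falls included genes of the matrix, of chemokines and of arginine metabolism. Vcan, which encodes the matrix proteoglycan versican and is strongly expressed by inflammatory monocytes, had values of 12.57 and 12.17 at day 1 and 8.46 and 9.36 at day 4, a fall of 11.0-fold (log2 change -3.46 ± 0.70, adjusted p = 7.4e-04). Ppbp, which encodes the precursor of the neutrophil-attracting chemokine CXCL7, had 13.05 and 12.80 against 9.54 and 9.57 (-3.37 ± 0.34, adjusted p = 1.1e-08). Arg1, the arginase that turns arginine into ornithine, had 11.70 and 11.13 against 7.59 and 8.70 (-3.27 ± 0.61, adjusted p = 2.8e-04). For each of these 3 genes both day 1 arrays lay above both day 4 arrays by more than the replicates differed from each other. Timp1, an inhibitor of matrix metalloproteinases, fell by 2.61 and the gap junction gene Gja1 (connexin 43) by 2.60. Serpinb2, an inhibitor of plasminogen activators, and Akr1c18, a steroid dehydrogenase, each fell by 2.06. Syn1 fell by 1.76. It encodes a neuronal synaptic vesicle protein, and in the RefSeq annotation the Timp1 gene overlaps it; how far the probes of either gene read the other was not tested. Slc39a14, a zinc and iron importer, fell by 1.73 and the collagen receptor subunit Itga1 by 1.70. Akr1c18, Itga1 and Serpinb2 were below the filter level at day 4. Pdpn (podoplanin, -1.72) and the neutrophil chemokine Cxcl3 (-1.69) passed with all 4 arrays but not without day 1 replicate 1 (largest adjusted p over the arrays left out 0.10 and 0.057), and Pdpn not without day 4 replicate 2.

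Among the genes that rose, Hpgd, the enzyme that degrades prostaglandin E2, had 8.13 and 8.35 at day 1 and 11.62 and 11.46 at day 4, a rise of 9.85-fold (3.30 ± 0.25, adjusted p = 4.1e-11). Cd33, a sialic acid-binding receptor of myeloid cells, had 9.66 and 9.91 against 12.57 and 12.17 (2.59 ± 0.18, adjusted p = 3.3e-12). Cxcl9, an interferon-gamma-induced chemokine for T cells, had 8.16 and 6.82 against 10.48 and 10.40 (2.95 ± 0.43, adjusted p = 9.6e-06). The day 1 arrays differed from each other more for Cxcl9 than for the other genes in this group. That the day 4 values lay above both was a condition for naming these genes and adds no support. Gpx3, a secreted glutathione peroxidase, rose by 2.97, Rasgrp3, an exchange factor for Ras, by 2.84, the lysophosphatidylserine receptor Gpr34 by 2.56 and Ifit2, an interferon-induced RNA-binding protein, by 2.55. Cmah, the hydroxylase that makes N-glycolylneuraminic acid, rose by 2.46 and the odorant receptor gene Olfr111 by 2.51. Cd28, best known as a costimulatory receptor of T cells, had 6.47 and 6.67 against 9.27 and 9.01 (2.57 ± 0.29, adjusted p = 1.1e-07). Myl1, a myosin light chain of fast skeletal muscle fibres, had 6.98 and 6.90 against 10.60 and 9.96 (3.34 ± 0.33, adjusted p = 1.1e-08). Bgn, the proteoglycan biglycan of connective tissue, had 6.68 and 6.72 against 9.25 and 9.22 (2.53 ± 0.28). Of the 12 genes with the largest rise 9 had a day 1 mean below the filter level. These were Bgn, Cd28, Cmah, Cxcl9, Gpr34, Gpx3, Myl1, Olfr111 and Rasgrp3, and the size and order of their changes are uncertain. Hpgd and Cd33 were above that level at both days. Ifit2 had a day 1 mean of 7.71, just above it, with arrays at 8.03 and 7.38. The size of its change is therefore uncertain too. In sorted bulk samples a change in the share of cells that express a gene and a change in RNA per cell cannot be told apart; markers of other cells are given below.

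**Figure D1:**
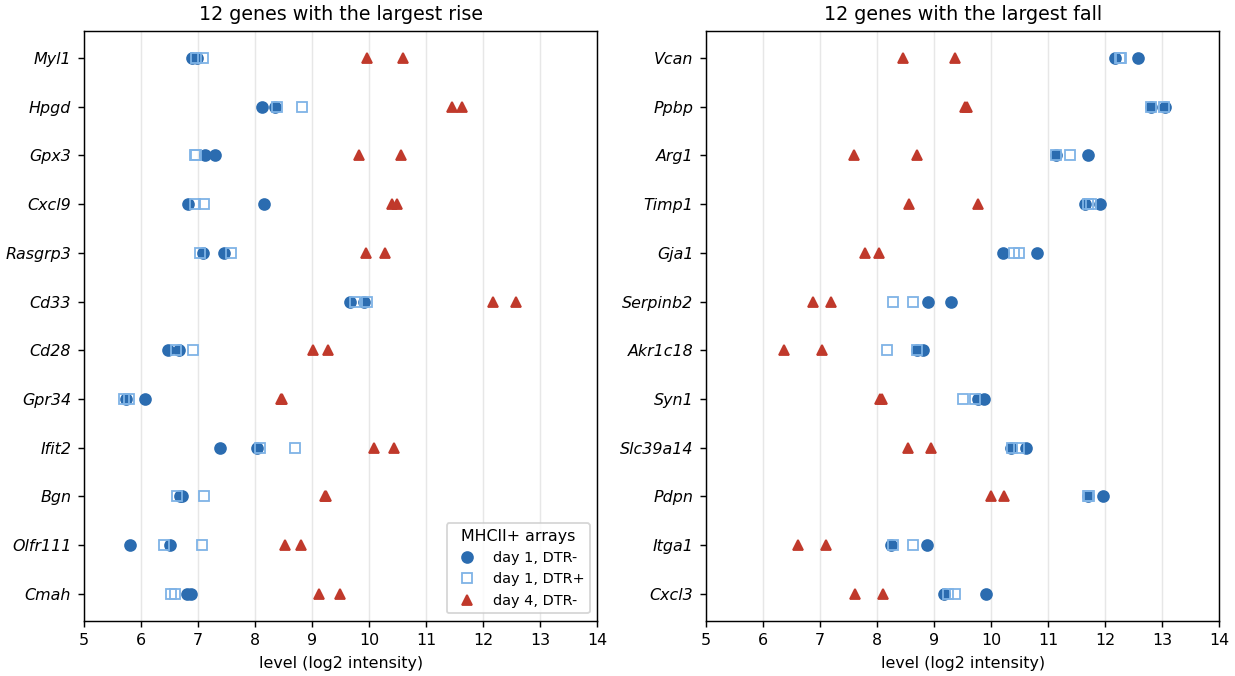
Level of the 12 genes with the largest rise and the 12 with the largest fall among those past an adjusted p of 0.05, in log2 intensity, with 1 symbol per array: filled circles for the 2 day 1 arrays, triangles for the 2 day 4 arrays and open squares for the 2 day 1 arrays of DTR+ mice, which were not part of the comparison. Day 4 triangles lie to the right of every day 1 symbol on the left panel and to the left of every day 1 symbol on the right panel.

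Interferon-gamma-induced genes rose in 9 of the 15 cases tested and fell in none. Of the 22 genes listed 16 were on the array, with 15 of 15 changes above 0 and a median change of 0.86 against -0.01 over all genes. Besides Cxcl9, the guanylate-binding protein gene Gbp3 had 7.90 and 7.55 against 8.92 and 9.24 (1.36 ± 0.23, adjusted p = 6.9e-05). The immunity-related GTPase gene Iigp1 had 6.21 and 5.85 against 7.47 and 7.67 (1.54 ± 0.34, adjusted p = 0.0018). Gbp5 rose by 1.27 and Cxcl10, another ligand of CXCR3, by 1.41, from 11.93 and 11.30 to 13.05 and 12.99. Day 1 replicate 1 was the higher day 1 array for each of these 5 genes. Without day 1 replicate 2 the list held 3 genes higher in place of 9, and Gbp5 (adjusted p = 0.055) and Cxcl10 (0.14 at most, also lost without day 4 replicate 2) no longer passed; without any of the other 3 arrays it held 7. Nos2, the inducible nitric oxide synthase, lay at 6.64 and 6.70 against 6.78 and 6.66 and its groups overlapped. Of 21 type I interferon-stimulated genes tested 6 were higher and none lower (median 0.40). Ifit2 led them. Ifit3 had 9.94 and 9.45 against 11.31 and 11.19 (1.56 ± 0.38), and Ifit1 rose by 1.15 ± 0.26 to 10.54 and 10.33, with neither passing without day 1 replicate 2, without day 4 replicate 2 or with the DTR+ arrays as day 1 (adjusted p up to 0.077 and 0.089). The list held 1 gene higher without day 1 replicate 2 or day 4 replicate 2 and 3 without day 4 replicate 3.

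The interferon-stimulated response element is a DNA motif bound by interferon regulatory factors. Its core was searched as GAAANNGAAA, or TTTCNNTTTC on the other strand, in the 250 bases before each gene's start, in the first window RefSeq lists (build GRCm38.p6). It was found in 6 of the 8 higher interferon-gamma-induced genes that had a window (75.0%) and in 8 of 11 tested ones, in 3 of 6 higher type I genes (50.0%), and in 3.04% of all 27025 genes with a window. Cxcl9 and Ifit2 had no match, which says only that these letters are not in this window. 5 windows are shown for the genes whose values are given above, 5′ to 3′ on the gene's strand, with the matches in capitals; the 2 matches of Gbp3 overlap. The first base of each match lies 45 and 39 bases before the start in Gbp3, 165 in Gbp5, 213 in Cxcl10, 104 and 85 in Ifit1, and 156 and 122 in Ifit3.
Gbp3 chr3:142559794-142560043, plus strand: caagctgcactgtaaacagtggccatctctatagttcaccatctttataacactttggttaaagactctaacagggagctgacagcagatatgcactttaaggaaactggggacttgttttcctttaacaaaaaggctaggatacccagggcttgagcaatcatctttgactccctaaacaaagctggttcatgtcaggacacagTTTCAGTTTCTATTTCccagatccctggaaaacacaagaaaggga
Gbp5 chr3:142496684-142496933, plus strand: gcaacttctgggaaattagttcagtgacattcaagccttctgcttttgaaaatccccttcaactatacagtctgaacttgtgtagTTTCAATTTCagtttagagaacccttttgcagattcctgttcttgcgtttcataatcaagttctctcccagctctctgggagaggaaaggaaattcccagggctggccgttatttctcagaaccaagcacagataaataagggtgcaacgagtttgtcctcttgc
Cxcl10 chr5:92348890-92349139, minus strand: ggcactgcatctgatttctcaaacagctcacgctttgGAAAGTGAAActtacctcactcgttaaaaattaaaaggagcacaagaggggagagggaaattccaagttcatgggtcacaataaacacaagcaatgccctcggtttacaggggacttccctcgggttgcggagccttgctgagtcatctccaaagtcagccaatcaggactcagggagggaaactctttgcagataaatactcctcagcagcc
Ifit1 chr19:34640639-34640888, plus strand: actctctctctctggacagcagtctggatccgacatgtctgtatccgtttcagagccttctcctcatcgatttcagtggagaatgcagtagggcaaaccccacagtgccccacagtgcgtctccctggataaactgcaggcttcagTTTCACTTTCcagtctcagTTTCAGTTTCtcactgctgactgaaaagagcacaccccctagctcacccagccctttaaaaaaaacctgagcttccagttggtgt
Ifit3 chr19:34583279-34583528, plus strand: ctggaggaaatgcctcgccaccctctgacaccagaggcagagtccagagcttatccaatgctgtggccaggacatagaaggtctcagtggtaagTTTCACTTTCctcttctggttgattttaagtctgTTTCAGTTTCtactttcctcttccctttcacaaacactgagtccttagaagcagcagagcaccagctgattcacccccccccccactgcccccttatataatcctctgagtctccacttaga

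Of the 12 antigen presentation genes tested 4 were higher and none lower. Ciita, the transactivator of class II genes, had 9.25 and 9.17 against 10.14 and 10.41 (1.07 ± 0.21, adjusted p = 3.7e-04). H2-Ob, a subunit of the peptide-loading modulator H2-O, rose by 0.77, and the costimulatory receptor Cd40 by 0.81. The class II chains themselves were near the top of the scale at both days: H2-Ab1 had 13.73 and 13.71 against 13.86 and 13.91 (0.16 ± 0.15, adjusted p = 0.54), and Cd74 had 13.49 and 13.54 against 13.66 and 13.66. Of 23 transcription factors of macrophages, the interferon regulatory factor Irf8 (11.05 and 10.82 against 11.92 and 11.85; 0.95 ± 0.15, adjusted p = 3.4e-05) and the basic helix-loop-helix repressor Bhlhe41 (1.48 ± 0.33) were higher and none was lower, a share of 8.70% higher against 7.77% of all genes.

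Chemokines changed in both directions. Of 22 tested, 6 were higher and 9 lower. On the T cell-attracting side, Cxcl16, the ligand of CXCR6, had 10.81 and 10.73 against 12.34 and 12.27 (1.54 ± 0.16, adjusted p = 1.2e-08), beside Cxcl9 and Cxcl10. Besides Ppbp, the platelet chemokine gene Pf4 (CXCL4) had 12.97 and 12.80 against 11.60 and 11.70 (-1.23 ± 0.14, adjusted p = 5.4e-08), and the CC chemokine gene Ccl6 fell by 0.53. Ccl2, the ligand of CCR2 that draws monocytes, had 13.26 and 13.14 against 12.61 and 12.57 (-0.61 ± 0.16), and Ccl17, a ligand of CCR4, fell by 1.09; both were lost without day 1 replicate 1 or day 4 replicate 2 (adjusted p at most 0.091 and 0.15). Cxcl1 (-0.63) was lost without the same arrays (0.15 at most) and with the DTR+ arrays as day 1. Cxcl2 lay at 13.37 and 13.39 against 13.22 and 13.12 and did not pass (-0.21 ± 0.17). Without day 1 replicate 1 or day 4 replicate 2 the list had 4 or 5 genes lower, and without day 1 replicate 2 or day 4 replicate 2 it had 3 higher.

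Of 12 chemokine and migration receptors 5 rose and 1 fell, and 3 rose without any 1 of the 4 arrays. With all 4 arrays the shares were 41.7% higher, against 7.77% of all genes, and 8.33% lower, near the 7.61% of all genes. Cx3cr1, the fractalkine receptor of patrolling monocytes and of many tissue macrophages, had 9.61 and 9.94 against 11.62 and 11.75 (1.91 ± 0.18, adjusted p = 2.1e-09). Itgal, the alpha chain of LFA-1, rose by 1.35 and the atypical chemerin receptor Ccrl2 by 1.03. The 1 that fell was Itgam, which encodes the CD11b of the gate. It had 12.59 and 12.48 against 11.50 and 12.02 (-0.77 ± 0.21, adjusted p = 0.0088 by limma). Its change ran from -1.03 to -0.52 when 1 array was left out. In the macrophage identity list, which also holds Itgam, 1 of 9 was higher and 1 lower (11.1% each, against 7.77% and 7.61% of all genes). Ccr2, the receptor by which monocytes leave the marrow, lay at 12.71 and 12.61 against 12.70 and 12.69 (0.03 ± 0.37). Among 9 genes of Ly6C-high monocytes 3 were lower (33.3%, against 7.61% of all genes), led by Vcan, and 1 was higher (11.1%, against 7.77%). The median was -0.46. The list had 1 gene lower without day 1 replicate 1, day 1 replicate 2 or day 4 replicate 2.

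Of 15 inflammatory cytokine genes tested 3 were higher (20.0%, against 7.77% of all genes) and 1 lower (6.67%, against 7.61%), and 0 or 1 was higher when any 1 array was left out. Il1b had 13.17 and 12.93 against 13.11 and 13.21, and Tnf 12.13 and 12.03 against 12.10 and 12.19; in both the groups overlapped. Changes of Il6 (-0.44 ± 0.47), Osm (-0.22 ± 0.29) and the anti-inflammatory Il10 (0.63 ± 0.28, adjusted p = 0.13) did not pass. The 3 cytokine genes higher by limma were Csf1 (1.37 ± 0.47, adjusted p = 0.042), Il18 (0.82 ± 0.19, 0.0024) and Il12b (0.51 ± 0.16, 0.032). The 1 lower was Il1rap (-0.58 ± 0.18, 0.030). Il12b was below the filter level at both days, with means of 6.97 and 7.48. Of 16 NF-kB regulators and targets 2 were higher (12.5%) and 1 lower (6.25%), near the shares of all genes, and 1 higher and 0 lower without day 1 replicate 1, day 1 replicate 2 or day 4 replicate 2; the inhibitor of apoptosis Birc3 had 10.37 and 10.35 against 11.09 and 11.05 (0.71 ± 0.12, adjusted p = 7.7e-05), while Ptgs2, the inducible cyclooxygenase, had 13.09 and 12.73 against 12.45 and 12.57 (-0.40 ± 0.33, adjusted p = 0.47). Of the 19 immediate-early and stress response genes tested 0 passed by limma and 3 had an unadjusted p under 0.05; the smallest adjusted p among those named was 0.055, for Fosl1 (-0.55 ± 0.20). Hmox1, which degrades heme, lay at 12.48 and 12.31 against 11.90 and 12.02 (adjusted p = 0.12).

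Of 14 genes associated with lipid-laden macrophages 6 rose (42.9%, against 7.77% of all genes) and 1 fell (7.14%, near the 7.61% of all genes). Gpnmb, a glycoprotein of phagocytic macrophages, had 11.96 and 12.06 against 13.39 and 13.42 (1.39 ± 0.12, adjusted p = 2.3e-10). Cd72, an inhibitory receptor, had 9.61 and 10.06 against 12.04 and 12.01 (2.19 ± 0.28), the integrin gene Itgax (CD11c) rose by 1.32, and the lipid-sensing receptor Trem2 had 11.60 and 11.60 against 12.57 and 12.53 (0.95 ± 0.14, adjusted p = 1.4e-05). Replicates of these genes lay close together next to the change. In the complement and efferocytosis list 8 of 20 were higher and 2 lower: the apoptotic cell receptor Axl had 10.11 and 10.27 against 12.05 and 12.10 (1.88 ± 0.27), Mertk, of the same kinase family, 10.89 and 10.74 against 11.83 and 11.70 (0.95 ± 0.14), and complement factor B (Cfb) rose by 1.91, while the scavenger receptor Msr1 fell by 0.61. C1qa did not pass (0.48 ± 0.34, adjusted p = 0.39). The shares of that list were 40% higher and 10% lower, against 7.77% and 7.61% of all genes. That list had 4 higher without day 1 replicate 1 and 5 without day 4 replicate 2.

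Of 22 lysosome genes 8 were higher (36.4%, against 7.77% of all genes) and 1 lower (4.55%, against 7.61%), with a median of 0.17. Atp6v0d2, a subunit of the vacuolar proton pump, had 9.65 and 9.86 against 12.15 and 11.97 (2.30 ± 0.15, adjusted p = 1.4e-12), and the cholesterol carrier Npc2 rose by 0.41. The count was 3 without day 1 replicate 1 or day 4 replicate 2 and 4 without either of the others. Of 19 genes of lipid efflux and of PPAR and LXR targets 6 were higher (31.6%) and 1 lower (5.26%). Mylip, a ligase that degrades the LDL receptor, rose by 0.63 and Apoe, the apolipoprotein of cholesterol export, by 0.92, from 13.17 and 13.01 to 13.93 and 14.09. The fatty acid receptor Cd36 had 12.54 and 12.60 against 11.84 and 11.70 (-0.80 ± 0.13, adjusted p = 6.5e-05). Apoe did not pass without day 1 replicate 2 (adjusted p = 0.055), and the list had 2 genes higher without day 1 replicate 1, 1 without day 1 replicate 2, 4 without day 4 replicate 2 and 3 without day 4 replicate 3. Of 15 sterol synthesis and uptake genes 1 passed, the desaturase Sc5d (0.65 ± 0.15), a share of 6.67% higher against 7.77% of all genes.

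Of 14 growth factors with known roles in repair 5 rose and none fell. Igf1, which supports myoblast growth, had 9.86 and 10.33 against 11.87 and 11.54 (1.60 ± 0.14, adjusted p = 4.5e-10). Hgf, an activator of muscle stem cells, had 8.81 and 8.87 against 9.82 and 9.91 (1.03 ± 0.22, adjusted p = 0.0013). Pdgfb, a mitogen of mesenchymal cells, rose by 1.22 and Pdgfa by 0.83; the former did not pass without day 4 replicate 3, nor the latter without day 4 replicate 2. The list had 3 higher without day 4 replicate 2. Tgfb1 (0.22 ± 0.12), Gdf3 (0.16 ± 0.21) and Vegfa (-0.51 ± 0.57) did not pass.

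Matrix genes went both ways, 5 of 17 higher and 7 lower. The metalloproteinase genes Mmp12 (10.11 and 10.55 against 11.53 and 11.54; 1.20 ± 0.25, adjusted p = 0.0011) and Mmp13 (1.31 ± 0.25) and the inhibitor Timp2 (0.96 ± 0.11) rose, while Vcan, Timp1 and Serpinb2 fell. Fn1 (-0.46 ± 0.34) and Thbs1 (-0.61 ± 0.42) did not pass. Without day 4 replicate 2 the list had 3 higher and 3 lower. In the list of arginine metabolism and alternative activation 4 of 16 were lower (25%, against 7.61% of all genes) and 1 higher (6.25%, against 7.77%). Arg1 led the falls. The beta-glucan receptor Clec7a had 11.68 and 11.53 against 12.43 and 12.44 (0.83 ± 0.14, adjusted p = 5.9e-05). Odc1, which makes putrescine from ornithine, fell by 0.90, and did not pass without day 1 replicate 1 (adjusted p = 0.057). The mannose receptor gene Mrc1 fell by 0.62, and did not pass without day 1 replicate 1, day 1 replicate 2 or day 4 replicate 2 (0.18 at most). That list had 1 lower without day 1 replicate 1, and 2 without day 1 replicate 2 or day 4 replicate 2.

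Among 13 iron and heme genes 1 rose (7.69%, near the share of all genes) and 2 fell, and 1 fell without day 1 replicate 1, day 1 replicate 2 or day 4 replicate 2. The ferroxidase Cp (ceruloplasmin) had 6.58 and 6.81 against 8.62 and 8.62 (1.93 ± 0.28, adjusted p = 9.1e-06), and the transferrin receptor Tfrc 9.85 and 9.69 against 8.34 and 8.67 (-1.26 ± 0.27, adjusted p = 0.0013). The iron exporter Slc40a1 lay at 6.22 and 6.26 against 7.40 and 7.28, with no overlap, and did not pass (1.10 ± 0.45, adjusted p = 0.095).

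Ribosome biogenesis and translation genes fell in 14 of the 19 cases tested and rose in none (median -0.70), and both day 1 values lay above both day 4 values in 19 of 19, against 31.8% of all genes. Polr1a, the largest subunit of RNA polymerase I, had 9.64 and 9.57 against 8.53 and 8.81 (-0.94 ± 0.15, adjusted p = 5.1e-05). Rrp12, a factor of pre-rRNA processing, had 8.79 and 8.72 against 8.02 and 7.89 (-0.80 ± 0.13), and the H/ACA snoRNP protein gene Gar1 9.01 and 8.90 against 8.01 and 8.18 (-0.86 ± 0.15). Wdr12, of the complex that matures the large subunit, fell by 0.86. The list had 9 to 13 genes lower when any 1 of the 4 arrays was left out, with 9 without day 4 replicate 2. Ribosome synthesis is driven in part by MYC, which binds the E-box CACGTG. This sequence, the same on both strands, was searched in the 250 bases before each gene's start. It was found in 0 of the 11 lower genes with a window and in 1 of the 15 tested. The shares were 6.05% of all genes and 8.59% of the genes tested, so few matches are expected in a list this short. Bases after the start were not searched, and a part of MYC in the fall was not tested.

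Of 22 glycolysis and hypoxia response genes 8 fell and 1 rose, with 21 changes below 0 (median -0.51). Pfkl, a phosphofructokinase, had 9.99 and 9.74 against 8.53 and 9.04 (-1.08 ± 0.24, adjusted p = 0.0019), the pyruvate kinase gene Pkm 11.70 and 11.63 against 10.50 and 10.95 (-0.94 ± 0.24), and Hif1a, the hypoxia-inducible factor, fell by 0.76. In each, day 4 replicate 2 was the lower day 4 array. Without it the list had 0 genes lower, and the adjusted p of Pfkl became 0.097; without day 1 replicate 1 it had 1 and without day 1 replicate 2 it had 4. Pkm and Hif1a did not pass without day 4 replicate 2 or day 1 replicate 1 (0.16 and 0.20 at most). Ldha (-0.31 ± 0.23) and Hk2 (-0.41 ± 0.24) did not pass with all 4 arrays. For oxidative phosphorylation 26 of 27 changes were below 0 (median -0.31) and 2 passed (7.41%, near the 7.61% of all genes that were lower), with 0 without day 1 replicate 1, day 1 replicate 2 or day 4 replicate 2 and 6 without day 4 replicate 3. For the TCA cycle and fatty acid oxidation 19 of 21 were below 0 and 3 passed, with 0 without day 4 replicate 2, 1 without day 1 replicate 1 and 2 without day 1 replicate 2. The 3 that passed for the TCA cycle and fatty acid oxidation were lower, a share of 14.3% against 7.61% of all genes. The replicates of day 4 stood apart in these lists: summed intensities of the oxidative phosphorylation genes were 45348 and 53664 at day 4 against 59002 to 59601 at day 1.

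**Figure D2:**
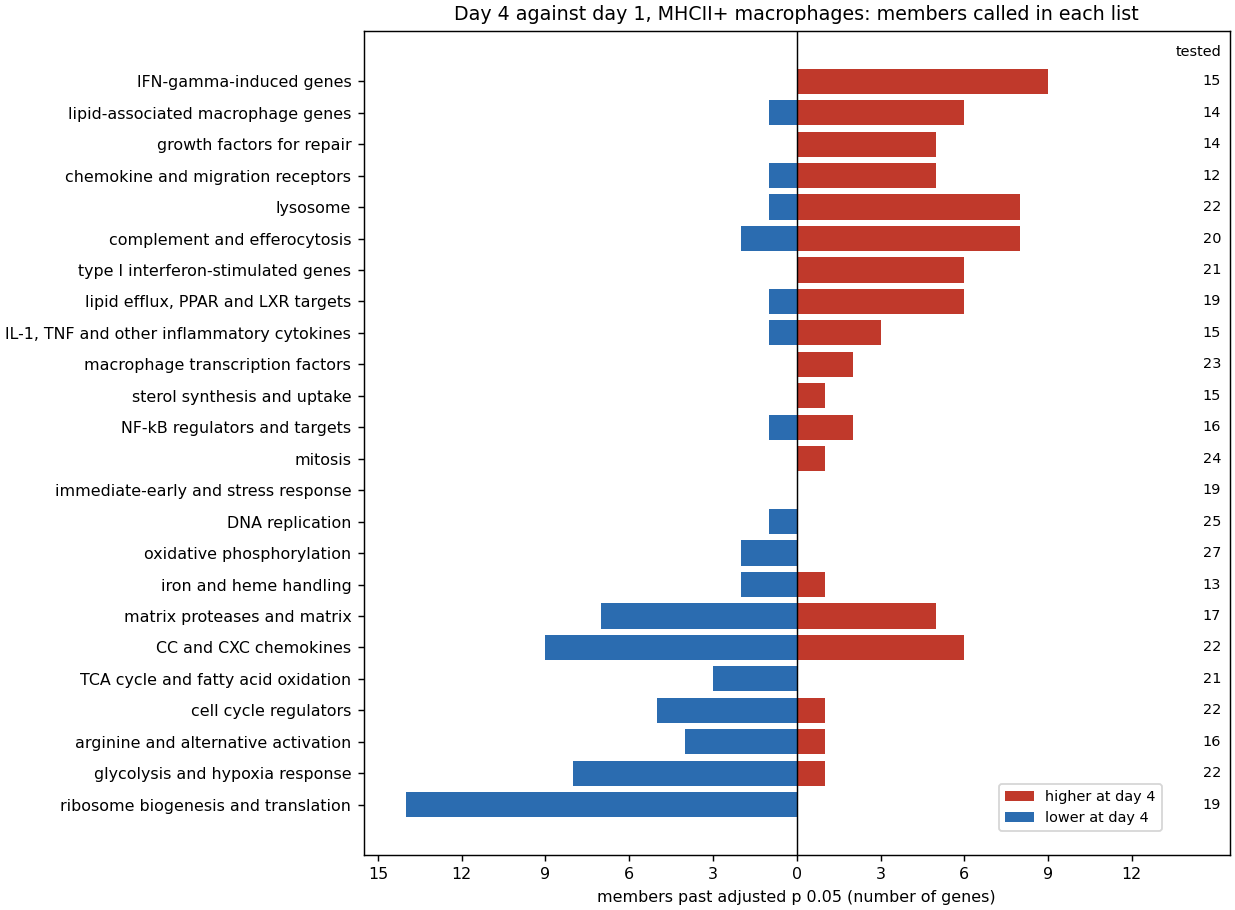
Number of genes past an adjusted p of 0.05 in each of the pathway lists, higher at day 4 to the right and lower to the left of the line, with the number tested at the right edge. Interferon-gamma-induced genes (9 higher, none lower, of 15) and ribosome biogenesis genes (14 lower, none higher, of 19) stand at the ends, and the chemokine and matrix lists extend both ways.

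Among cell cycle genes in MHCII+ cells, the replication and mitosis lists had lower shares of called genes than the 15.4% of all genes, and the list of regulators did not. Of 25 DNA replication genes 1 was lower and none higher (median -0.36, 22 of 25 changes below 0), and of 24 mitosis genes 1 was higher and none lower (median 0.27, 21 of 24 above 0). Mki67, a marker of cycling cells, had 8.49 and 8.96 against 9.23 and 9.52 (0.64 ± 0.34, adjusted p = 0.21), and Top2a 7.94 and 8.29 against 7.73 and 8.40. Cyclin D2 (Ccnd2) had 11.44 and 11.57 against 9.97 and 10.16 (-1.44 ± 0.22, adjusted p = 2.3e-05). Of 22 cell cycle regulators 5 were lower (22.7%, against 7.61% of all genes) and 1 higher; without day 4 replicate 3 the list had 3 lower, and without any of the other arrays 1.

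In MHCII- macrophages of the same days and genotype (2 arrays a day, none shared with the comparison above), 2680 of 11074 genes passed (24.2%), 1870 higher (16.9%) and 810 lower (7.31%). The change differed between the subsets for 136 genes (1.23%) in a direct test: it was lower in MHCII+ cells for 123 (1.11%) and higher for 13 (0.117%), with a median difference of -0.08 over all genes. That median was -0.01 with quantile normalization or no filter, -0.04 without MHCII+ day 4 replicate 2, and -0.13 without MHCII+ day 4 replicate 3 or with the replicate block. Leaving out 1 of the 8 arrays gave 49 to 98 genes, with 49 without MHCII+ day 1 replicate 2. The test with replicate numbers as a block gave 58, and the numbers are shared by only some of the arrays.

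The cell cycle lists differed between the subsets. In MHCII- cells 24 of 24 mitosis genes were higher at day 4 (median 1.87) and 15 of 25 DNA replication genes (median 0.61). Over all genes 16.9% were higher in these cells. The change was lower in MHCII+ than in MHCII- cells for 12 mitosis genes and 10 DNA replication genes by the direct test, and for 0 genes of either list was it higher. At an unadjusted p under 0.05 the difference was found for 24 of 24 mitosis genes, against 921 of all 11074. Ccna2 (cyclin A2) had a day 1 mean of 6.43 in MHCII- cells, below the filter level, so the size of its rise there is uncertain. It rose by 4.05 in those cells and had 8.42 and 8.97 against 9.42 and 9.45 in MHCII+ cells (difference between subsets -3.31, adjusted p = 1.1e-04). It passed without each of the 8 arrays, as did Ccnb2 (cyclin B2; -2.39, adjusted p = 0.0021), which did not pass with the replicate block (0.058). The list counts moved more: without 1 array the mitosis count ran from 2 (without MHCII+ day 1 replicate 2 or day 4 replicate 2) to 9 and the DNA replication count from 1 (without MHCII+ day 4 replicate 2) to 11, and with the replicate block they were 3 and 7. The difference for Mki67 (-2.00, adjusted p = 0.023) did not pass without any of 6 of the 8 arrays. Day 1 means in MHCII+ and MHCII- cells were 8.70 and 6.43 for Ccna2 and 9.77 and 8.86 for the replication gene Mcm2. Day 4 means were 9.44 and 10.48 for Ccna2 and 8.92 and 9.28 for Mcm2. For these genes the difference in change thus includes a higher level in MHCII+ cells at day 1. Whether fewer MHCII+ cells were cycling was not tested.

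Lyve1, a hyaluronan receptor of tissue-resident macrophages, had 10.04 and 10.35 against 8.84 and 8.42 in MHCII+ cells (-1.57 ± 0.41, adjusted p = 0.0080) and rose by 2.49 in MHCII- cells (difference -4.06, adjusted p = 5.7e-05). The fall in MHCII+ cells alone did not pass without day 1 replicate 2 or day 4 replicate 3 (0.087 at most), while the difference passed without each of the 8 arrays. Vsig4, a complement receptor, stayed dim in MHCII+ cells at 5.52 and 5.67 against 5.75 and 5.68, below the filter level of 7.57, and rose by 3.38 in MHCII- cells (difference -3.26). The lectin gene Cd209f had a difference of -3.84, with a change in MHCII+ cells of -0.32. Retnla, a secreted product of alternatively activated macrophages, had a difference of -2.92, with a change in MHCII+ cells of 0.06. It was bright in MHCII+ cells, at 12.22 and 12.61 against 12.46 and 12.48. Its means in MHCII- cells, 7.03 at day 1 and 10.01 at day 4, were lower at both days. In MHCII- cells the day 1 means of Vsig4 (5.86), Cd209f (5.50) and Retnla (7.03) were below the filter level. The size and order of their differences are therefore uncertain. Of 13 resident macrophage genes 2 were higher and 4 lower in MHCII+ cells, 8 were higher and none lower in MHCII- cells, and the difference was called lower in MHCII+ cells for 5 (4 or 5 without 1 array, 3 with the replicate block). The 4 lower in MHCII+ cells became 1 without day 1 replicate 1 or day 4 replicate 2, 0 without day 1 replicate 2 and 2 without day 4 replicate 3. With all 4 arrays the MHCII+ shares of this list were 15.4% higher and 30.8% lower, against 7.77% and 7.61% of all genes. In MHCII- cells 16.9% of all genes were higher and 7.31% lower. The difference was lower in MHCII+ cells for 1.11% of all genes. Selenop, a selenium transport protein of this list, rose in both subsets (0.99 ± 0.10 and 0.85). It had 12.25 and 12.21 against 13.31 and 13.12 in MHCII+ cells.

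Class II is what the gate divides, so its genes are no finding here: H2-Ab1 rose by 2.62 and Cd74 by 1.10 in MHCII- cells, with differences of -2.45 and -0.96. Among genes that rose in both subsets, the rise was smaller in MHCII+ cells for Igf1 (1.60 against 2.95, difference adjusted p = 5.8e-05), Itgax (1.32 against 3.14, 3.5e-05), Timp2 (0.96 against 1.82, 0.0014) and Atp6v0d2 (2.30 against 3.42, 0.0024). The first 3 passed under each alternative run and Atp6v0d2 under each but the replicate block (0.060). In the other direction, the change of Mefv (pyrin) was higher in MHCII+ cells by 1.47 (9.38 and 8.96 against 9.49 and 9.94 in MHCII+ cells, and -0.92 in MHCII- cells; adjusted p = 0.0030), lost without MHCII+ day 1 replicate 2 (0.056). For the interferon-gamma-induced genes the difference passed for 0 of 15 by limma, with 0 at an unadjusted p under 0.05.

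**Figure D3:**
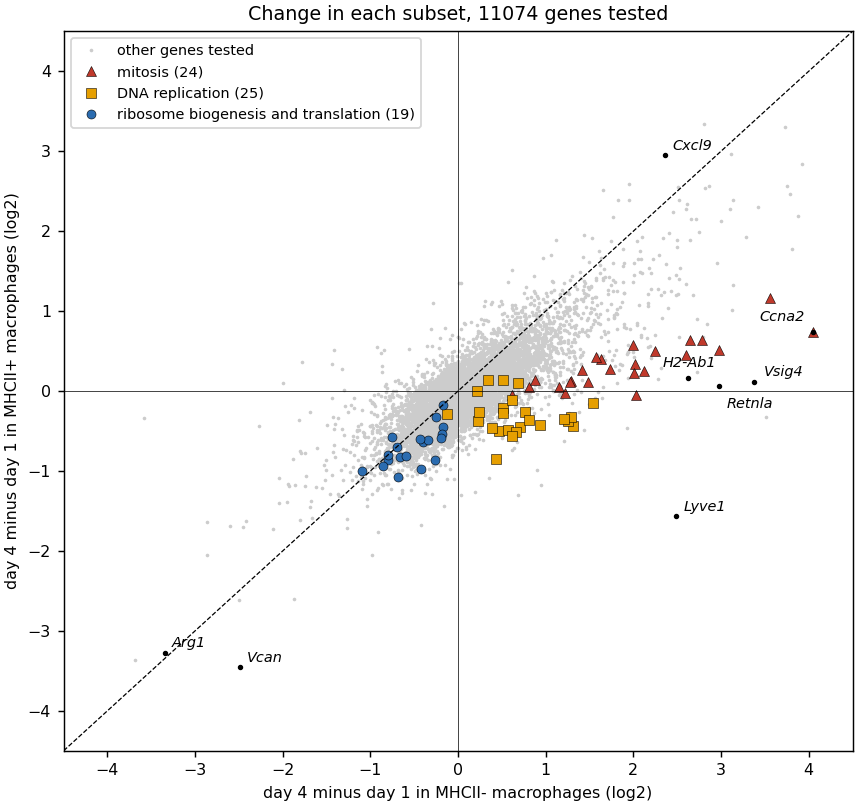
Change from day 1 to day 4 in MHCII- macrophages (horizontal axis, log2) and in MHCII+ macrophages (vertical axis, log2), with 1 point per gene tested, 3 gene lists in colour and the dashed line marking equal change. Mitosis genes lie at 0.61 or further right on the horizontal axis, ribosome biogenesis genes lie below 0 on both, and Lyve1 has a rise of 2.49 in one subset and a fall of 1.57 in the other.

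Markers of other cells moved with some results and their part was not tested. Of 11 skeletal muscle genes tested 3 were higher (27.3%, against 7.77% of all genes) and none lower. Des (desmin) had 6.63 and 6.36 against 8.35 and 8.41 (1.88 ± 0.30), Acta1 rose by 1.10 and Tnnt3 by 0.96, beside the 3.34 of Myl1. The summed intensity of the list was 2530 to 2570 at day 1 and 3835 to 4002 at day 4, while the muscle-defining factors Myod1 (7.39 and 7.42 as group means), Myog (6.70 and 6.94) and Pax7 (7.55 and 7.75) lay below the filter level or near it at both days. Of 9 fibroblast genes 3 were higher (1 without day 1 replicate 1 or day 4 replicate 2), with Postn (periostin) at 5.71 and 6.12 against 7.95 and 8.44 (2.28 ± 0.40) and a summed intensity of 1764 to 1910 against 2598 to 2667; Bgn, another matrix gene, moved with them. The 3 fibroblast genes that were higher were 33.3% of those tested, against 7.77% of all genes. The skeletal muscle genes also rose in MHCII- cells (Des 1.75, Myl1 2.80).

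Among lymphocyte genes Cd4 had 7.08 and 7.12 against 9.47 and 9.52 (2.40 ± 0.25, adjusted p = 1.4e-08) while Cd3e, which every T cell carries, lay at 7.23 and 7.32 against 7.53 and 7.22, and the other 8 T and NK cell genes on the array were below the filter in every group of the series. The summed intensity of the T and NK cell list was 903 to 935 at day 1 and 1494 to 1640 at day 4. Cd79b rose by 1.27 and Blnk by 0.78, while the other 4 B cell genes on the array, B cell receptor partners and lineage factors, were below the filter; the list summed to 1756 to 1984 against 3315 to 3463. Clec9a, a receptor of cross-presenting dendritic cells, had 5.99 and 6.05 against 7.42 and 7.33 (1.36 ± 0.22), below the filter level at both days, and Flt3 rose by 0.84 but not without day 1 replicate 2 (adjusted p = 0.054); Zbtb46 lay at 7.50 and 7.56 against 7.75 and 7.49, and the list summed to 6826 to 7396 against 6869 to 8345. Of 11 neutrophil genes 1 was higher and 2 lower (Mmp8 -1.39, lost without day 4 replicate 2 at 0.052), with sums of 2546 to 2803 against 2909 to 3033, and S100a8 had group means of 6.13 and 6.19. The neutrophil shares were 9.09% higher, near the 7.77% of all genes, and 18.2% lower, against 7.61%. The 1 higher was Csf3r, with 9.67 and 9.54 against 10.65 and 10.73 (1.08 ± 0.27, adjusted p = 0.0046 by limma). The 2 lower were Mmp8 and Mmp9 (-1.17 ± 0.39). Mmp9 did not pass with no filter or with the DTR+ arrays as day 1. Without 1 array the change ran from 1.02 to 1.15 for Csf3r and from -1.54 to -0.81 for Mmp9. Of 4 erythroid and platelet genes Ppbp and Pf4 fell and the list summed to 14712 to 16959 against 4367 to 4546. Gp9 (7.47 and 7.62 against 7.75 and 7.65) and Itga2b (7.55 and 7.41 against 7.65 and 7.42), which define platelets, stood near the filter level. By limma 0 of 4 endothelial genes (3 at an unadjusted p under 0.05; sums 1165 to 1302 against 1183 to 1233) and 0 of 2 eosinophil and mast cell genes (0; sums 883 to 913 against 853 to 984) passed.

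Levels on the other days of the MHCII+ DTR- arrays are given as description, with no test; the day 0 mice were 10 weeks old and their gate lists no SiglecF step, and ages and gates also vary among the day 7 sets. Cxcl9 was at 10.26 to 10.61 at day 0, 10.40 to 10.48 at day 4 and 10.61 to 11.58 in the 3 groups of day 7, so that day 1 was the low point. Hpgd (11.28 to 11.59 at day 0) and Cd33 (12.25 to 12.28) had a low at day 1 in the same way, as did Igf1 (11.37 to 11.61 at day 0). Arg1 and Vcan were high at day 1 only, at 7.22 to 7.99 and 7.31 to 7.75 at day 0. Cx3cr1 (10.16 to 10.60 at day 0) and Gpnmb (12.17 to 12.36) were higher at day 4 than at day 0 and day 1. Lyve1 was at 12.40 to 12.66 at day 0, lower at day 1 and lowest at day 4, and at 10.23 to 11.89 at day 7. In the day 1 arrays of DTR+ mice, which carry the toxin receptor and the same 24 h in their titles, Cxcl9 lay at 6.95 to 7.10, Arg1 at 11.13 to 11.38 and Hpgd at 8.38 to 8.82, near the DTR- arrays.

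**Figure D4:**
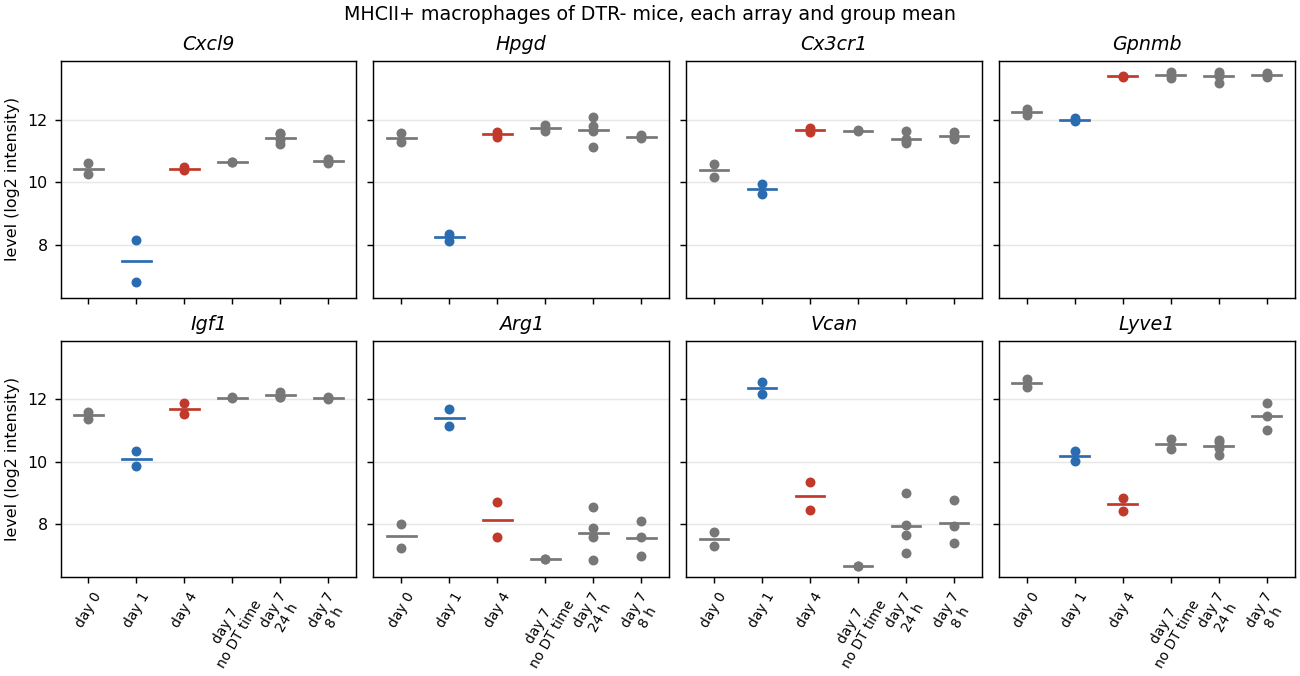
Log2 intensity of 8 genes in the MHCII+ arrays of DTR- mice, with points for arrays and bars for group means, over day 0, day 1, day 4 and the 3 sets of day 7 (no DT time, 24 h and 8 h in the titles). Cxcl9, Hpgd and Igf1 are lowest at day 1, Arg1 and Vcan are highest at day 1, and Lyve1 is lowest at day 4.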

How the data were processed

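Per the labels' protocols, TriZol was used to extract RNA from the sorted cells, and targets were labelled with an Affymetrix kit for whole-transcript arrays. The deposited values are intensities on a linear scale, 1 per probe set; RMA and Affymetrix Power Tools are named by the submitters' processing notes, without a version. RMA summarises probes after quantile normalization, so a shift shared by most genes would not be seen.

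Log2 was taken of the 24922 probe sets of 45 arrays. Of these 21425 have 1 gene symbol in the platform annotation, 1399 several and 2098 are not listed; the brightest probe set stood for a gene, giving 19752 genes. Genes whose mean reached the overall median of log2 7.57 in at least 1 of the 18 groups were tested (11074). limma 3.58.1 in R 4.3.3 fitted a mean for each group over all 45 arrays (27 residual degrees of freedom, moderated with an intensity trend), so the 2 arrays of a group borrow the spread of the other groups, and p-values were adjusted by Benjamini-Hochberg with a threshold of 0.05. The difference between subsets was 1 contrast of 4 group means in the same fit. The script was tested on simulated data. Tables and figures were made with Python 3 libraries (pandas, matplotlib). Depth has no counterpart on arrays, where the number of arrays limits the precision. Array medians over all probe sets were 180 to 195 in linear units. Over the 11074 genes tested, replicates correlated at 0.994 (day 1) and 0.983 (day 4), against 0.942 to 0.965 between days.

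Named genes were the 12 with the largest change in each direction among those that passed and did not overlap, in each of 37 lists the 4 or fewer members of lowest p, a set of 49 genes (45 on the array), and up to 6 in each direction for the difference between subsets; predicted genes, small RNAs and receptor segments enter the counts without being named, and defining markers of other cells are given besides. The members and lists were chosen with earlier results of these data known. No set test was run. Alternatives changed the filter, normalization, probe set rule, arrays in the fit, weights, trend, day 1 reference and each array in turn. Promoter windows are RefSeq's of build GRCm38.p6; they were searched for motifs only, and no other coordinates were used.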

Additional observations from a re-analysis of the deposited data

Results flagged for a closer look

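The change from day 1 to day 4 differed between MHCII+ and MHCII- macrophages for 32 of the genes named by rule, by limma's test of the difference itself (2 arrays in each of 4 groups). Values are the change in MHCII+ cells minus that in MHCII- cells on the log2 scale, and no explanation was weighed. Cd209f, Ccna2, Vsig4, Retnla, Plk1, Mki67 and Cd72 had MHCII- day 1 means below the filter level of 7.57. Clec9a had means below it in all 4 groups. The size and order of these differences are uncertain.

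In 14 genes the difference was below 0 and passed an adjusted p of 0.05 without each of the 8 arrays in turn: Lyve1 -4.06, Cd209f -3.84, Ccna2 -3.31, Vsig4 -3.26, Retnla -2.92, H2-Aa -2.48, H2-Ab1 -2.45, Ccnb2 -2.39, Itgax -1.82, Igf1 -1.34, Blnk -1.18, Atp6v0d2 -1.12, Cd74 -0.96 and Timp2 -0.86. H2-Aa, H2-Ab1 and Cd74 belong to the class II molecules that the gate divides. Atp6v0d2, Ccnb2 and Cd74 did not pass with the replicate number as a block.

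In 12 further genes it was below 0 and did not pass without at least 1 of the 8 arrays: Plk1 -2.14, Mmp9 -2.12, Mki67 -2.00, Cd72 -1.69, Mmp12 -1.48, Ccnd1 -1.35, Ccnd2 -1.28, Mcm2 -1.28, Rfc3 -1.18, Mcm5 -1.18, Cxcl16 -0.99 and Cd36 -0.73.

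In 6 genes it was above 0 and did not pass without at least 1 array: Napsa 1.19, Cd177 1.31, Clec9a 1.32, Itgal 1.33, Cd244a 1.36 and Mefv 1.47. Napsa, Cd177, Cd244a and Mefv fell by 0.87, 1.30, 0.85 and 0.92 in MHCII- cells, while the MHCII- change of Itgal was 0.01 and that of Clec9a 0.04, neither of which passed. The groups held 2 arrays each, so single arrays were not screened as outliers.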

How the results depend on the processing

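The count of genes that passed between days (1704) was 1365 to 2556 with another filter, quantile normalization or median centring, no trend, the mean of probe sets, the compared arrays alone or a day 1 group that uses the DTR+ arrays. It was 3838 in a fit on the 12 arrays of days 1 and 4, 2706 with array quality weights, 309 with a 2-fold minimum besides, and 656 to 1676 when 1 of the 4 arrays was left out; the cause was not tested. Where 1 array of a group is left, it is assumed to vary like the other groups. The difference between subsets (136 genes) was 693 on those 12 arrays, 492 on the compared arrays, 625 with weights, and 49 to 98 without 1 array. Of 125 named genes that passed between days, 71 passed under each alternative, with the same direction, and 71 without each of the 4 arrays; of 32 genes named for the difference 14 passed without each of the 8 arrays and 11 under each alternative.

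No paired analysis was made for day 4 against day 1. The 2 groups share 1 replicate number, and a number shared between days does not show that samples belong together. For the difference between subsets, the fit with the replicate number as a block gave 58 genes. Deviations of same-numbered MHCII+ and MHCII- arrays correlated at 0.289 at day 1 and at -0.257 at day 4; with fewer than 3 pairs this does not settle whether the numbers pair the samples.

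The sign of the change turned for genes that did not pass. Nos2 gave -0.0026 with quantile normalization and -0.00035 with median centring, Ccr2 gave -0.020 with median centring and -0.0042 with the DTR+ arrays as day 1, and with those arrays Cd209f gave 0.32, Gdf3 -0.018 and Il6 0.0016. Leaving out 1 array, the ranges were -0.0047 to 0.11 for Nos2, -0.018 to 0.087 for Ccr2, -0.14 to 0.25 for Retnla, -0.010 to 0.24 for Il1b, -0.056 to 0.17 for Itga2b, -0.38 to 0.29 for Top2a, -0.67 to 0.025 for Cd209f, -0.053 to 0.26 for Cd3e, -0.044 to 0.22 for Zbtb46 and -0.10 to 0.43 for Gdf3. The limits of the comparison are its 2 arrays a group, the toxin time that goes with the day, and labels that give no date or batch.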
